A study of Mus musculus with 9 samples.

Results

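The set of genes described here holds 10 receptors and transcription factors of granulopoiesis, the formation of granulocytes from bone marrow precursors: Csf3r, Csf2ra, Csf2rb, Csf2rb2, Cebpa, Cebpb, Cebpd, Cebpe, Gfi1 and Spi1. They were chosen for their known role, at a time when earlier results of these data were known. Each was measured by the probe set with a single gene symbol that had the highest mean over all arrays. Of the 10 genes, 9 were measured, among 18194 genes in all. Cebpe, the C/EBP member of late granulocyte maturation, is not listed in the annotation used and was not analysed here.

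Whole blood of C57BL/6 mice aged 8 to 9 weeks was measured on 9 arrays, 1 per animal, in 3 groups of 3. Control mice (Ctrl) were not injured and were bled by cardiac puncture as soon as anesthesia had been induced. Polytrauma mice (PT) were injured at 3 sites, the brain, the chest (both sides, blunt) and a femur that was broken under intact skin, and were bled 4 h later. The third group (PT + HS) had the same trauma and, from 1 h after it, a hemorrhagic shock of 60 min at an arterial pressure of 30 mmHg. Before sampling these mice were resuscitated with electrolytes in 30 min, at 4 volumes for each volume of blood lost. The study's methods describe continued anesthesia, buprenorphine and catheters for the injured mice and norepinephrine for PT + HS mice, so that in every comparison the injury cannot be told apart from the procedures that went with it. Blood was drawn into tubes that stabilize RNA, and the RNA of all its cells was measured together. In such samples, fewer cells of a type and less RNA per cell cannot be told apart.

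Neutrophils are made in the bone marrow under the control of colony-stimulating factors, secreted proteins that bind receptors on precursors and on mature cells and signal through JAK kinases and STAT transcription factors. Spi1 (PU.1) and the C/EBP proteins switch on the genes of the granulocyte lineage, Gfi1 represses genes of other fates, and Cebpb is known for the additional output of granulocytes during infection or injury. Since mature neutrophils keep the receptors and several of these factors, their transcripts in blood need not come from precursors. Which blood cells carried them was not measured here.

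All values are log2 expression values, so that a difference of 1 is a doubling. An exact permutation test of 3 against 3 arrays cannot give a two-sided p below 0.1, so that the tests rest on limma, which shares the spread over genes. A gene is called below when a difference between groups reached an unadjusted p under 0.05 in limma and 1.5-fold, which are the thresholds of the study. On this scale, levels are compared between arrays of 1 gene and not between genes. The PT replicate 2 array stood apart from the rest, with correlations of 0.900 to 0.944 to the other arrays, and gave a value below the mean of its group for 9 of the 9 genes, whereas PT replicate 1 was above it for 9 of 9. The median SD of the 9 genes was 0.245 on Ctrl arrays, 0.602 on PT arrays and 0.423 on those of PT + HS, against 0.222, 0.306 and 0.208 over all genes. PT values of these genes are therefore given with and without replicate 2 wherever that moved a call.

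Against Ctrl, PT + HS blood had higher levels of 9 of the 9 measured genes, with a median difference of 0.94, and 7 were called higher: Csf3r, Csf2rb, Csf2rb2, Cebpa, Cebpb, Cebpd and Spi1. Over all genes, 3.28% were called in that comparison, 1.99% were called higher, 47.4% were higher at all and the median difference was -0.014. After PT without shock, 7 of the 9 genes were higher than in Ctrl, with a median difference of 0.56, and Csf2rb was the 1 called gene, against 3.67% of all genes called and 1.41% called higher. Between PT + HS and PT, 9 of 9 genes were higher with a median difference of 0.48, and Cebpa was the 1 called gene, against 1.12% of all genes called and 0.726% called higher. Shares of all genes called in the same setting are in brackets below. The count of 7 fell to 3 without Ctrl replicate 2 (2.84%), PT + HS replicate 1 (2.67%) or PT + HS replicate 3 (3.02%). It was 4 without Ctrl replicate 3 (3.04%) and 5 without Ctrl replicate 1 (3.70%). The count in PT against Ctrl went up to 5 without PT replicate 2 (6.14%) and to 7 with array weights (9.16%). It was 2 without PT replicate 3 (8.21%) or PT + HS replicate 2 (3.51%). The count in PT + HS against PT went up to 4 without PT replicate 1 (2.78%). It was 2 without PT replicate 3 (3.42%) or PT + HS replicate 2 (1.84%). With array weights, the PT + HS mean exceeded that of PT for 3 of the 9 genes and the median difference was -0.17, so that the direction of the group in that comparison depended on how the PT arrays were weighted. The comparisons of PT and of PT + HS with Ctrl share the same 3 Ctrl arrays, so that their differences are not independent.

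With the Benjamini-Hochberg adjustment over all genes, limma called 0 of the 9 genes in each comparison at an adjusted p under 0.05, and at an unadjusted p under 0.05 it called 1 in PT against Ctrl, 7 in PT + HS against Ctrl and 1 in PT + HS against PT. The share of all genes at an adjusted p under 0.05 was 0% in PT against Ctrl, 0.0055% in PT + HS against Ctrl and 0% in PT + HS against PT, and at an unadjusted p under 0.05 it was 5.82%, 4.86% and 2.87%. Groups that did not overlap were seen for 1 of the 9 genes in PT against Ctrl, 6 in PT + HS against Ctrl and 1 in PT + HS against PT, where 9.44%, 13.2% and 7.17% of all genes had groups apart in this way. Gfi1 was the 1 member with a mean below the median of all gene means, 4.29. Among the genes above that median, 5.94%, 5.18% and 1.45% were called in PT against Ctrl, PT + HS against Ctrl and PT + HS against PT, so that the background of the other 8 members was somewhat higher than that of all genes.

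**Figure D1:**
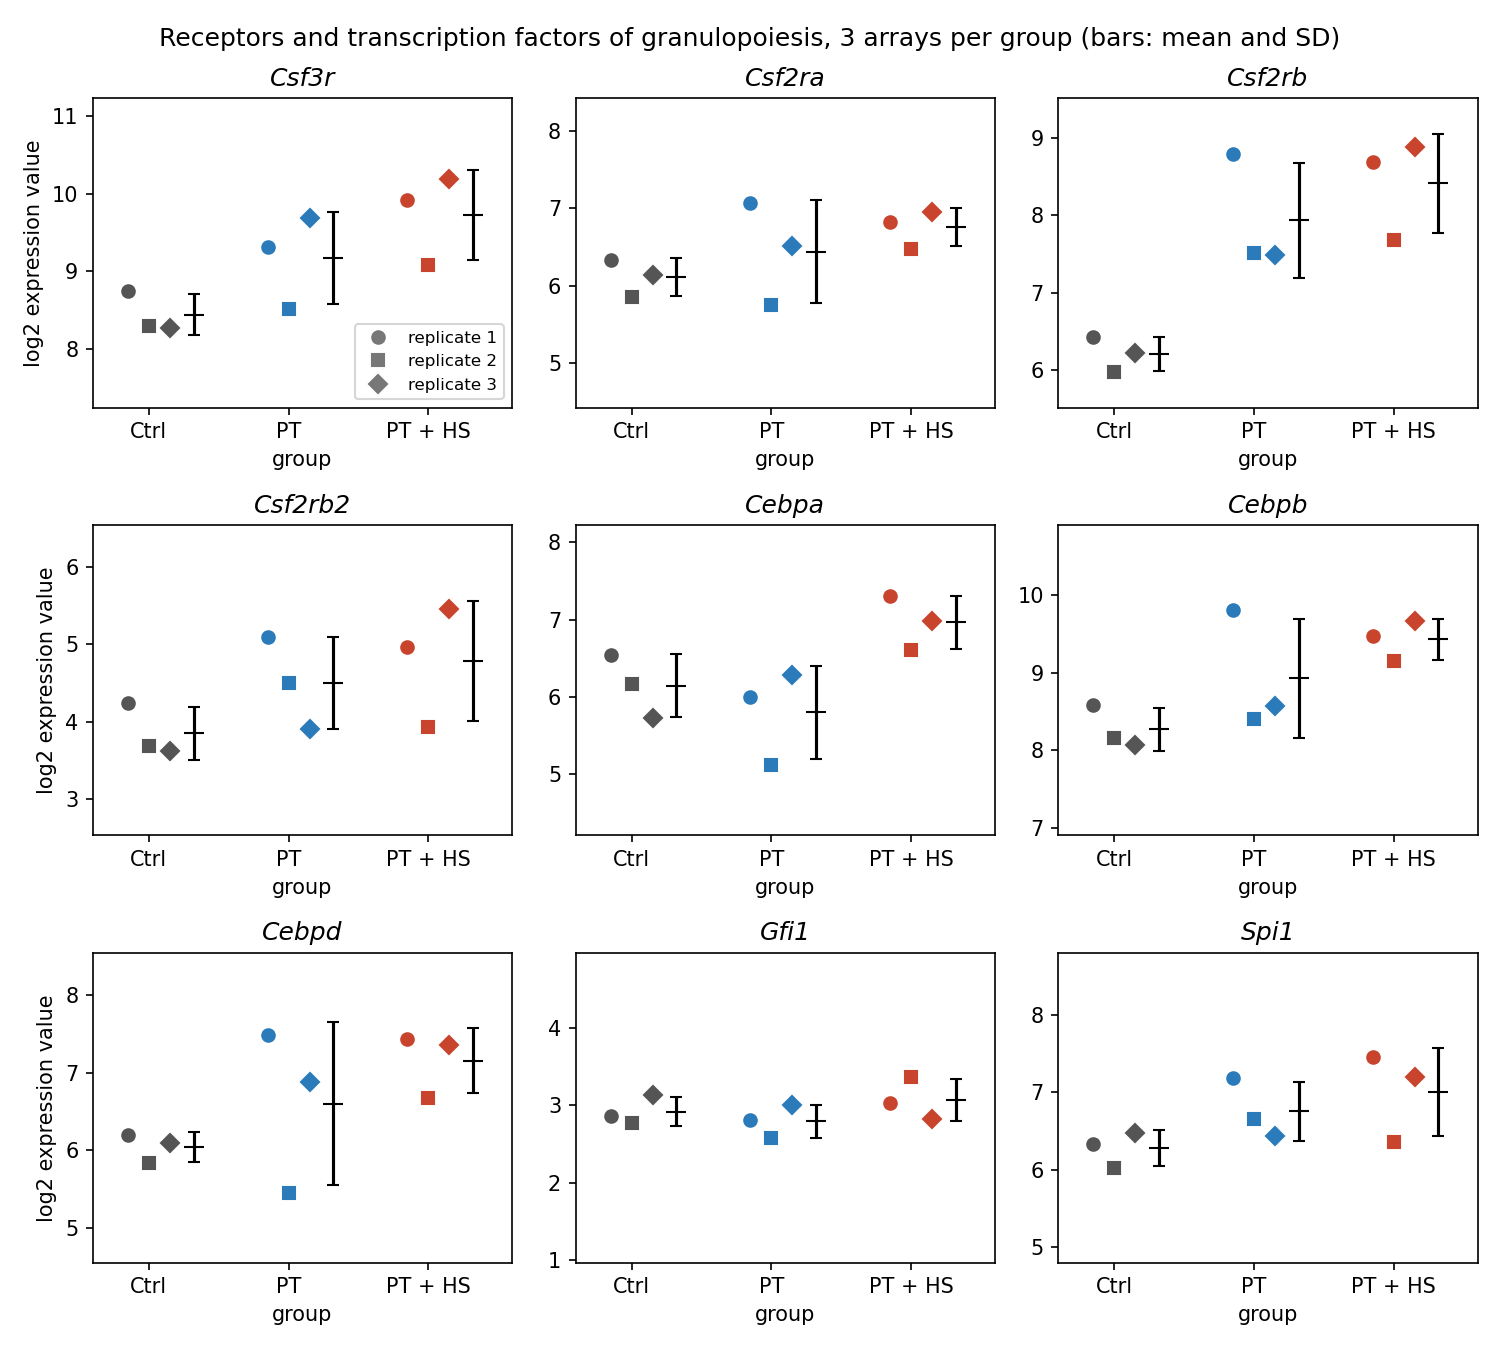
Log2 expression value of each of the 9 measured genes on each array (vertical axis, the same span in every panel) for Ctrl, PT and PT + HS, with the mean and SD of 3 arrays as bars. All 3 PT + HS arrays lie above all Ctrl arrays for Csf3r, Csf2ra, Csf2rb, Cebpa, Cebpb and Cebpd, and PT replicate 2 (square) lies below the PT mean in every panel.

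The receptor of G-CSF, encoded by Csf3r, carries the main growth and release signal of neutrophils. Its promoter is printed because Csf3r was called in PT + HS and because a letter match to the PU.1 core lies in it. The 250 bases before the transcription start of the RefSeq gene model (GRCm38.p6, chr4:126024409-126024658, plus strand) are given 5′ to 3′ on the strand of the gene, as are those below, with the match to GAGGAA in capitals, which starts 86 bases before the transcription start.
Csf3r: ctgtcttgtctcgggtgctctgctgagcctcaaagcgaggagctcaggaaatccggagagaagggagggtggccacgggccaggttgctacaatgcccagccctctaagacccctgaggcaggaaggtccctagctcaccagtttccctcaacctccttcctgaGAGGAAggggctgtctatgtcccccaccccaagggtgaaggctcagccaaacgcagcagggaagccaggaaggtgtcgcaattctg
The Csf3r level was 8.75, 8.30 and 8.27 on the Ctrl arrays, 9.32, 8.52 and 9.69 on the PT arrays and 9.92, 9.08 and 10.19 on the PT + HS arrays. All PT + HS arrays were above all Ctrl arrays, whereas PT replicate 2 lay inside the Ctrl range and the other PT arrays above it. Csf3r was 1.29 ± 0.35 (SE, 3 arrays per group) higher in PT + HS than in Ctrl, or 2.44-fold, with a limma p of 0.00447 and an adjusted p of 0.556. The difference of PT from Ctrl was 0.73 ± 0.35 with a 95% interval of -0.05 to 1.52 and was not called. Without PT replicate 2 it was 1.06 and called. The difference of PT + HS from PT was 0.55, with an interval of -0.23 to 1.34, and was not called with all arrays.

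GM-CSF, interleukin 3 and interleukin 5 bind receptors that each join a ligand-specific alpha chain to a shared signaling beta chain. Csf2ra encodes the alpha chain for GM-CSF, Csf2rb the shared beta chain and Csf2rb2 a second beta chain, found in mice, that serves interleukin 3. The coding sequences of Csf2rb and Csf2rb2 are near-identical, and 1 further probe set annotated to both was left out, so that signal of each may in part come from the other.

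The Csf2rb level was 6.42, 5.98 and 6.22 in the Ctrl mice, 8.79, 7.52 and 7.49 after PT and 8.68, 7.68 and 8.88 after PT + HS. Every injured animal was above every Ctrl animal, and the PT and PT + HS arrays overlapped. The difference from Ctrl was 1.73 ± 0.40 (SE) in PT, or 3.31-fold, with an unadjusted limma p of 0.00149 and an adjusted p of 0.399. In PT + HS it was 2.21 ± 0.40, or 4.62-fold, with an unadjusted limma p of 0.000255 and an adjusted p of 0.201. Both differences were past the thresholds in every setting tried, and those of PT ranged from 1.30 to 2.43 and those of PT + HS from 1.98 to 2.57 over 19 settings, with adjusted p-values from 0.00773 to 1.0 and from 0.0155 to 0.935. The 0.48 difference between PT + HS and PT had an interval of -0.40 to 1.36 and was not called. A second Csf2rb probe set was 1.92 higher in PT and 2.26 higher in PT + HS than in Ctrl.

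For Csf2rb2 the promoter is printed because it too was called in PT + HS and holds a match to the PU.1 core, here on the opposite strand, written as TTCCTC in capitals 167 bases before the start (GRCm38.p6, chr15:78305722-78305971, minus strand).
Csf2rb2: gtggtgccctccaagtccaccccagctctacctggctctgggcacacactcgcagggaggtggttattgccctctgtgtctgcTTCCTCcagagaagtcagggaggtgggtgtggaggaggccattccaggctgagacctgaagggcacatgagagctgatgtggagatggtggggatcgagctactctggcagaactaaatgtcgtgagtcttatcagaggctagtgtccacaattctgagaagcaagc
Its level was 4.24, 3.68 and 3.63 in the Ctrl mice, 5.10, 4.50 and 3.91 after PT and 4.97, 3.94 and 5.46 after PT + HS. PT + HS replicate 2 lay within the Ctrl range, and so did PT replicate 3. Csf2rb2 was 0.94 ± 0.41 (SE) higher in PT + HS than in Ctrl, or 1.91-fold, with a limma p of 0.0443 and an adjusted p of 0.999. The call was lost without any 1 of Ctrl replicate 2, Ctrl replicate 3, PT + HS replicate 1 and PT + HS replicate 3, and by the methods' t-test. The difference was 0.65 (95% interval -0.25 to 1.56) between PT and Ctrl and 0.28 (-0.62 to 1.19) between PT + HS and PT, and neither was called.

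The alpha chain gene Csf2ra had levels of 6.34, 5.85 and 6.14 in the Ctrl mice, 7.07, 5.75 and 6.51 after PT and 6.83, 6.48 and 6.96 after PT + HS. The PT + HS arrays lay above the Ctrl arrays with no overlap, and the PT arrays reached below and above the range of Ctrl. The difference of 0.64 ± 0.31 (SE) between PT + HS and Ctrl was 1.56-fold and had a limma p of 0.0640, so that it was not called, although it was called without PT replicate 1 or PT replicate 2 and, with all arrays, by the methods' t-test, in the 2 groups alone, with array weights, with repeated quantile normalization and with the replicate block. Between PT and Ctrl it was 0.33 (95% interval -0.36 to 1.02) with all arrays and 0.68 without PT replicate 2, where it was called. The 2 probe sets of Csf2ra disagreed, since the second one was -0.50 in PT and -0.32 in PT + HS relative to Ctrl, and the direction for Csf2ra therefore depends on the probe set.

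Of the C/EBP transcription factors, Cebpa, which is required for the step from common myeloid precursors to granulocyte precursors, was the 1 member called between PT + HS and PT. Its promoter is printed for that reason (GRCm38.p6, chr7:35119043-35119292, plus strand). It holds no match to the PU.1 core GAGGAA or to the C/EBP motif TTNNGNAA on either strand, so that no letter is in capitals.
Cebpa: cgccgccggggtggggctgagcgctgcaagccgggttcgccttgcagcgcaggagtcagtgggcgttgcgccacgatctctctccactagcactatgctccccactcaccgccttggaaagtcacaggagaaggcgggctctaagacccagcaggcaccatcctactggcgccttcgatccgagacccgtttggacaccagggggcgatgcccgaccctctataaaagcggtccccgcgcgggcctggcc
Cebpa had levels of 6.54, 6.17 and 5.73 in the Ctrl mice, 6.00, 5.12 and 6.28 after PT and 7.30, 6.61 and 6.98 after PT + HS. The 3 PT + HS arrays were above all 6 other arrays, and the PT arrays reached lower than the Ctrl arrays. PT + HS was 1.16 ± 0.33 (SE) higher than PT, or 2.24-fold, with a limma p of 0.00533 and an adjusted p of 1.0. Over 19 settings that difference ranged from 0.83 to 1.40, with p from 0.000921 to 0.0439 and adjusted p from 0.189 to 1, and it was called in all of them. The value of 0.83 was that without PT replicate 2.

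Relative to Ctrl, Cebpa was 0.82 ± 0.33 (SE) higher in PT + HS, or 1.76-fold, with an unadjusted limma p of 0.0316 and an adjusted p of 0.940. That call was lost without any 1 of Ctrl replicate 2, Ctrl replicate 3, PT + HS replicate 1 and PT + HS replicate 3, and by the methods' t-test. In PT the difference from Ctrl was -0.35 with a 95% interval of -1.07 to 0.38, and without PT replicate 2 it was -0.01. Cebpa was thus the 1 member apart from Gfi1 with a PT mean below the Ctrl mean.

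Cebpb, known for granulocyte output under stress and for inflammatory genes in macrophages, was called in PT + HS, which is why its promoter is printed (GRCm38.p6, chr2:167688665-167688914, plus strand). As in Cebpa, neither motif matched on either strand.
Cebpb: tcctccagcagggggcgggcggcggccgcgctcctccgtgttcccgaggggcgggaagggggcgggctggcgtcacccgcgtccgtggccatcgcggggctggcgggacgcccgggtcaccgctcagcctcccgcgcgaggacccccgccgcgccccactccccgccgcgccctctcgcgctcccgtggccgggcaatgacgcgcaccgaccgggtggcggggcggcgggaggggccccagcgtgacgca
The Cebpb level was 8.58, 8.16 and 8.07 in the Ctrl mice, 9.81, 8.41 and 8.57 after PT and 9.48, 9.15 and 9.67 after PT + HS. PT replicate 1 had the highest value of all arrays, the other PT arrays lay inside the Ctrl range, and the PT + HS arrays were all above it. Cebpb was 1.16 ± 0.34 (SE) higher in PT + HS than in Ctrl, or 2.24-fold, with a limma p of 0.00717 and an adjusted p of 0.639. That call held without each of the arrays in turn. The second Cebpb probe set differed by 1.76 in the same comparison. In PT the difference was 0.66 (95% interval -0.11 to 1.43), which was not called, and without PT replicate 2 it was 0.92 and called.

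Cebpd is induced early in the acute phase by STAT3 signaling. Its level was 6.20, 5.83 and 6.10 in the Ctrl mice, 7.49, 5.44 and 6.88 after PT and 7.43, 6.67 and 7.36 after PT + HS. All PT + HS arrays lay above Ctrl, and the PT arrays were the most scattered of any member, with an SD of 1.05, since PT replicate 2 was below and the other 2 above the whole Ctrl range. The difference between PT + HS and Ctrl was 1.11 ± 0.45 (SE), or 2.16-fold, with an unadjusted limma p of 0.0320 and an adjusted p of 0.941. Its call was lost without any 1 of the Ctrl arrays, without PT + HS replicate 1 and without PT + HS replicate 3. Between PT and Ctrl it was 0.56 (95% interval -0.44 to 1.55) with all arrays and 1.14 without PT replicate 2, where it was called. A second probe set of Cebpd gave 0.69 in PT, which was called, and 0.54 in PT + HS relative to Ctrl, which was not.

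The last pair of members acts above the C/EBP factors or beside them. Spi1 (PU.1), the ETS factor of myeloid and B cells that is known to drive several of the receptor genes above, had levels of 6.33, 6.02 and 6.48 in the Ctrl mice, 7.18, 6.66 and 6.44 after PT and 7.45, 6.36 and 7.20 after PT + HS. PT + HS replicate 2 and PT replicate 3 fell within the Ctrl range and the other injured animals were above it. Spi1 was 0.73 ± 0.30 (SE) higher in PT + HS than in Ctrl, or 1.65-fold, with an unadjusted limma p of 0.0370 and an adjusted p of 0.979. The call was lost without any 1 of Ctrl replicate 1, Ctrl replicate 2, PT + HS replicate 1 and PT + HS replicate 3, and by the methods' t-test. Between PT and Ctrl the difference was 0.48 (95% interval -0.19 to 1.15) and between PT + HS and PT 0.25 (-0.43 to 0.92), with no call in either.

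Gfi1, a zinc finger repressor that neutrophil precursors need, was 2.86, 2.77 and 3.14 in the Ctrl mice, 2.82, 2.58 and 3.0 after PT and 3.03, 3.36 and 2.82 after PT + HS. The groups overlapped throughout. Its differences were -0.12 (95% interval -0.57 to 0.32) between PT and Ctrl, 0.15 (-0.30 to 0.60) between PT + HS and Ctrl and 0.27 (-0.17 to 0.72) between PT + HS and PT, and none was called.

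**Figure D2:**
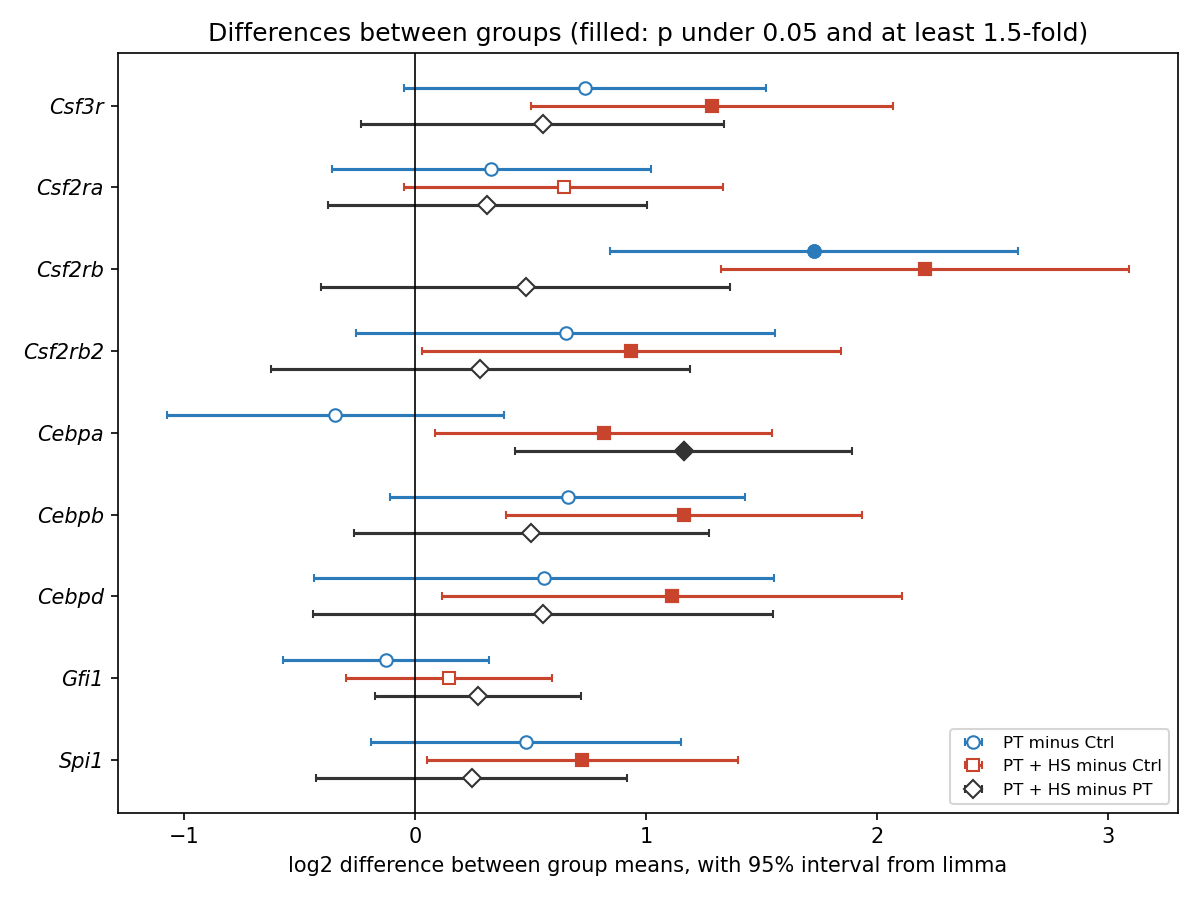
Log2 difference between group means (horizontal axis) for each gene and comparison, with 95% intervals from limma, filled where the difference was called. In PT + HS minus Ctrl 7 of 9 points are filled, in PT minus Ctrl that of Csf2rb and in PT + HS minus PT that of Cebpa.

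Promoter windows were listed in RefSeq (GRCm38.p6) for 6 of the 10 members, with 7 windows of 250 bases, and those of called members are the 4 printed above. Over all 32851 such windows, GAGGAA was found in 23.25% and TTNNGNAA in 36.85%, with both strands searched. Of the 6 members with a window, the PU.1 core matched in Csf3r, Csf2ra and Csf2rb2 and the C/EBP motif in those of Csf2ra and Gfi1. The matches do not overlap each other, and a match describes letters and no measured binding.

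The call of Cebpa between PT + HS and PT was made in every setting, whereas most of the other differences depended on single arrays and on array weights. With array weights, those of Csf2ra, Csf2rb, Csf2rb2, Cebpb, Cebpd and Spi1 were below 0. That of Csf2rb2 was -0.05 without PT + HS replicate 3, and that of Spi1 was 0.02 without PT + HS replicate 1. The difference of Gfi1 stayed between 0.13 and 0.40 without each array in turn. Without PT replicate 2, the PT + HS mean exceeded that of PT for 7 of the 9 genes, the median difference was 0.22, and the differences of Csf2ra (-0.04) and Cebpd (-0.03) were below 0. Without PT replicate 1, 4 genes were called, namely Csf2rb at 0.91, Cebpa at 1.26, Cebpb at 0.94 and Cebpd at 0.99, where 2.78% of all genes were called. Leaving out PT replicate 3 gave 2 calls, Csf3r at 0.81 and Cebpa at 1.40, and turned Csf2rb2 to -0.01, where 3.42% of all genes were called. The same 2 genes were called without PT + HS replicate 2, where 1.84% of all genes were. Between PT and Ctrl, 5 members were called without PT replicate 2, which were Csf3r, Csf2ra, Csf2rb, Cebpb and Cebpd, where 6.14% of all genes were called.

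**Figure D3:**
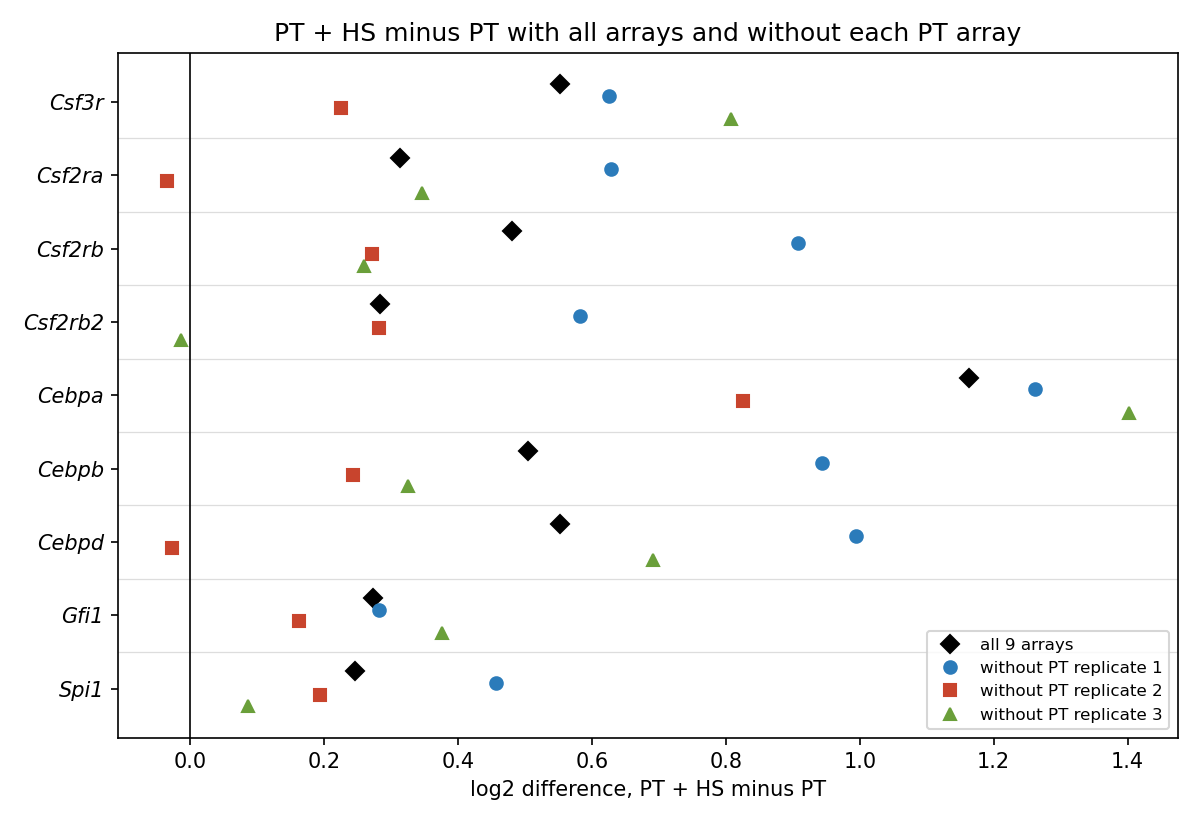
Log2 difference of PT + HS minus PT (horizontal axis) for each gene with all 9 arrays (black diamonds) and without each PT array in turn. Cebpa stays between 0.83 and 1.40, whereas Csf2ra and Cebpd lie just below 0 without PT replicate 2 and Csf2rb2 does so without PT replicate 3.

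The other genes of the pathway were read from lists of textbook members. The counts of called genes in these lists stand beside shares over all genes. These were 3.67% in PT against Ctrl, 3.28% in PT + HS against Ctrl and 1.12% in PT + HS against PT. Of the ligands, 8 of 10 were measured and 1 was called, Csf1, the growth factor of monocytes, which was 0.82 ± 0.22 (SE) higher in PT than in Ctrl. In PT + HS none of the ligands was called, with Csf1 at 0.52 and Csf3, which encodes G-CSF, at -0.28 ± 0.20 relative to Ctrl. The mean of Csf3 over the 9 arrays was 3.08, below the median of all gene means, 4.29, so that its difference is one of low signal. These values describe blood cells alone, while G-CSF is made largely by other tissues.

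Among 12 other cytokine and chemokine receptors of myeloid growth, 3 were called higher and none lower both in PT and in PT + HS against Ctrl, and none was called between PT + HS and PT. Cxcr2, the receptor that draws neutrophils out of the marrow, was 1.46 higher in PT and 1.99 ± 0.36 (SE) higher in PT + HS. Il6st, the signaling chain for interleukin 6, was 1.08 and 1.02 ± 0.38 higher. Flt3, a receptor of early precursors and dendritic cells, was called in PT + HS at 0.70 ± 0.24, and its 0.26 in PT was not called. The values of Cxcr4, a receptor that holds neutrophils in the marrow, were -1.20 and -0.85 ± 0.62 and were not called.

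Below the receptors, 21 genes of JAK-STAT signaling gave 1 called higher and 2 called lower in PT against Ctrl, 3 higher and none lower in PT + HS against Ctrl, and 1 higher in PT + HS against PT. Socs3, the feedback inhibitor of the G-CSF receptor that STAT3 induces, was 2.51 higher in PT and 2.62 ± 0.51 (SE) higher in PT + HS. Its levels were 7.49, 6.04 and 6.45 in the Ctrl mice, 9.97, 8.02 and 9.54 after PT and 9.35, 8.84 and 9.66 after PT + HS, with every injured animal above every Ctrl animal. Stat3 was called in PT + HS at 0.88 ± 0.37, and so was Gab2, an adaptor of cytokine receptors, at 1.39 ± 0.39. In PT their values were 0.53 and 0.82 and were not called.

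Of 40 other C/EBP and myeloid transcription factors, 2 were called higher and 3 lower in PT, 5 higher and 1 lower in PT + HS against Ctrl, and 3 higher in PT + HS against PT. Mxd1, a partner of MAX in maturing granulocytes, was 0.77 higher in PT and 0.96 ± 0.30 (SE) higher in PT + HS. Junb was called at 1.29 ± 0.43 in PT + HS, and Irf4, a factor of lymphocytes and some dendritic cells, was called lower at -0.90 in PT and -1.15 ± 0.36 in PT + HS. Etv6 was called higher in PT + HS both against Ctrl (0.88) and against PT (0.71 ± 0.29).

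Granule genes are known targets of these factors and are made at different stages of maturation. The 8 genes listed for primary granules, which are formed first, had 1 call in PT + HS against Ctrl, Ctsc at 0.71 ± 0.31 (SE), and none in the other comparisons. Elane, the elastase of primary granules, was at 0.22 in PT and 0.43 ± 0.30 in PT + HS relative to Ctrl. Over the 9 arrays, Ctsc and Serpinb1a of this list had means of 6.20 and 5.98. Elane and Prtn3 had 3.87 and 4.09, below the median of all gene means, 4.29. At such low signal, a lack of calls does not show that levels were unchanged. Of the genes listed for secondary and tertiary granules, 7 of 14 were called higher and none lower against Ctrl in PT and in PT + HS. Their medians were 1.10 and 1.42, and none was called between PT + HS and PT. Mmp8, the neutrophil collagenase, was 4.18 higher in PT and 4.75 ± 0.47 higher in PT + HS (limma adjusted p = 0.0748 and 0.0306), and was the 1 gene of all 18194 with an adjusted p under 0.05, in PT + HS against Ctrl. Lcn2 was 2.12 and 2.93 ± 0.83 higher and Hp 1.5 and 1.90 ± 0.32. Arg2 was 3.08 and 3.48 ± 0.52 higher. It is counted among the called genes of this list, although it encodes a mitochondrial arginase and not a granule protein. Of the 9 markers of proliferating precursors none was called in any comparison. Top2a and Birc5 of these had means of 4.10 and 4.02 over the 9 arrays, below that median, and Mki67 and Mcm5 had 6.04 and 5.52. For the markers of low signal, the lack of calls again does not show unchanged levels.

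Neutrophil markers, expressed by the cells in which most of the members are known to act, were for the most part higher in PT and PT + HS than in Ctrl, as the members were. Of 13 measured neutrophil markers of 16 listed, 8 were called higher in PT and 9 in PT + HS against Ctrl, none was called lower, and none was called between PT + HS and PT. Their mean level was 8.01, 6.57 and 6.71 on the Ctrl arrays, 9.36, 7.76 and 8.95 on the PT arrays and 9.62, 8.31 and 9.23 on the PT + HS arrays, with Ctrl replicate 1 above PT replicate 2. In each group the second array had the lowest mean of these markers. Most members were low on these arrays too. Ctrl replicate 2 had 8 of the 9 members below their group mean, PT replicate 2 had 9 and PT + HS replicate 2 had 8. The array with the lowest value differed more, and only Csf2ra and Cebpd were lowest on the second array of every group. Csf3r, Csf2rb2, Cebpa and Cebpb were lowest on Ctrl replicate 3 among the Ctrl arrays. Csf2rb, Csf2rb2 and Spi1 were lowest on PT replicate 3 among the PT arrays, and Gfi1 on PT + HS replicate 3 among those of PT + HS. Ly6g, Retnlg and Fpr1 of the neutrophil list were not analysed here. Mmp8 and Lcn2 are also in the list of secondary and tertiary granule genes, and Cxcr2 in that of other receptors. These lists are therefore not independent. The part of the neutrophil markers in the members' differences was not tested.

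Of 11 measured monocyte markers of 13 listed, 3 were called higher and 4 lower in PT, 3 higher and 1 lower in PT + HS against Ctrl, and 3 higher in PT + HS against PT. Their mean level was 7.87, 7.47 and 7.64 in the Ctrl mice, 8.26, 7.58 and 7.05 after PT and 8.29, 8.00 and 8.09 after PT + HS. For all 11 the PT + HS mean exceeded the PT mean, by a median of 0.60, beside the 1.16 of Cebpa, a gene that monocytes express too. The part of the monocyte markers was not tested. Of the 9 B cell markers 8 were called lower in PT and 7 in PT + HS against Ctrl, and no T cell or red cell precursor marker was called in any comparison. In PT against Ctrl, 4 of 7 NK cell markers, 2 of 10 eosinophil and basophil markers and 1 of 7 platelet markers were called lower. In PT + HS against Ctrl 1 NK cell marker was called lower. Between PT + HS and PT all 7 NK cell and all 7 platelet markers were higher in PT + HS, as the 9 members were, with 1 NK cell marker called (Gzma at 1.03) and no platelet marker, and 1 eosinophil and basophil marker was called higher. The part of these markers was not tested.

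**Figure D4:**
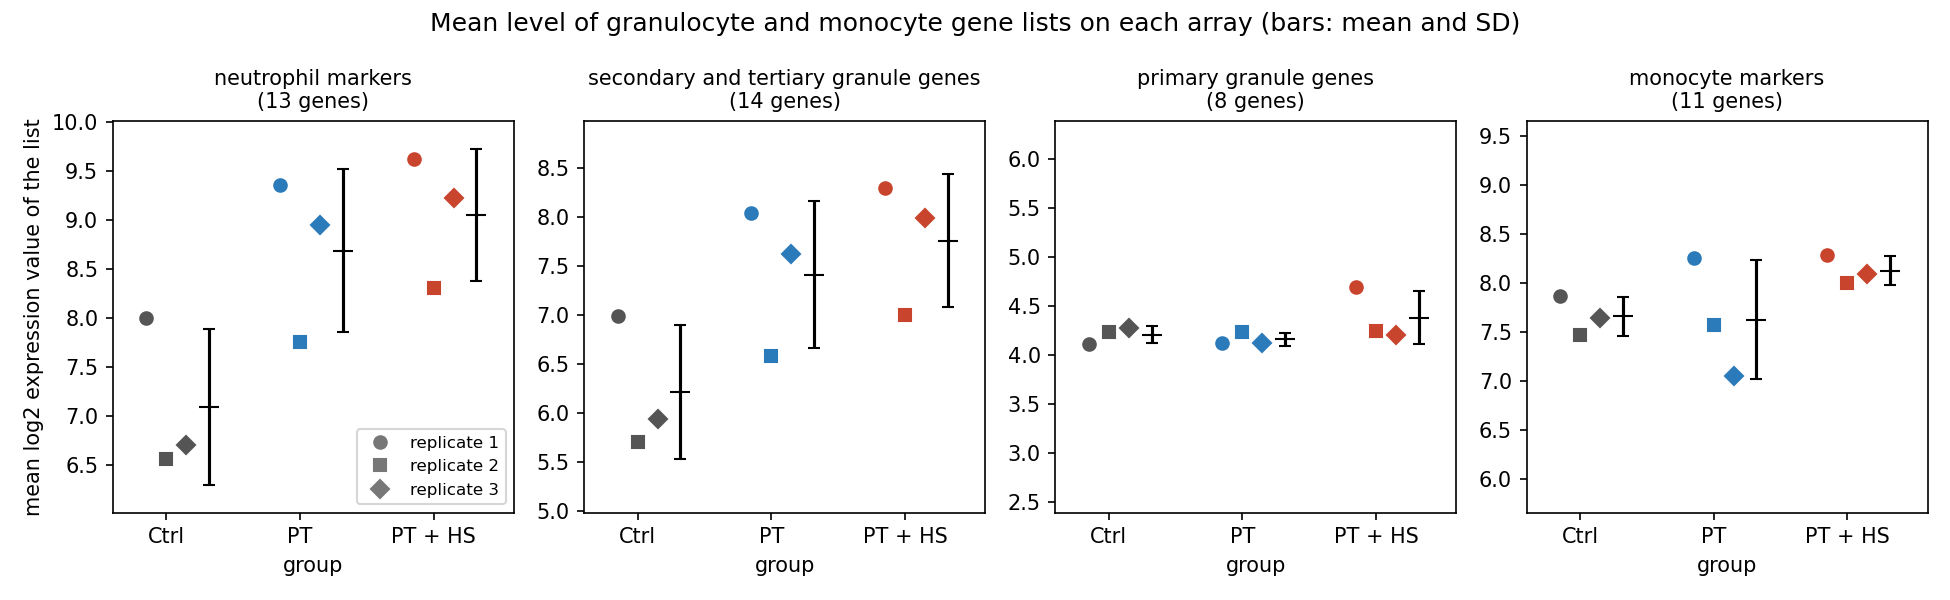
Mean log2 expression value of 4 gene lists (vertical axis) on each array, with the mean and SD of each group as bars. The neutrophil and the secondary and tertiary granule lists, which share genes, lie higher in PT and PT + HS than in Ctrl. In both of these, PT replicate 2 is below Ctrl replicate 1. The primary granule list is between 4.11 and 4.69 on all arrays.

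Genes with a pattern most like that of a member were found by the root mean square difference over the 9 arrays, after each gene was centred on its own mean, for the 6 members with an SD over 0.5. The search was limited to genes with a mean above the median of all gene means. The smallest differences were those from Cebpb, at 0.119 for Ltbr, the lymphotoxin beta receptor, 0.134 for Bach1, a repressor regulated by heme, and 0.140 for Tnfrsf1a, a receptor of TNF. Around Cebpd were Apobec1 (0.175), Ccl6 (0.202) and Trim30d (0.210). The genes nearest to Csf3r were Cpd (0.187), H2-Q10 (0.189), whose probe sets may share signal with near-identical class I genes, and Cd300ld (0.220).

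The genes nearest to Csf2rb were Xdh, the xanthine dehydrogenase (0.227), Casp4, an inflammatory caspase (0.237), and Mcemp1 (0.249). Csf2rb2 had B430306N03Rik (0.212), Emilin2 (0.216) and F10, the coagulation factor X (0.282). The genes nearest to Cebpa were Atp2c1 (0.205), Pfkfb4 (0.309) and Cd300lb (0.315). Their differences from Ctrl were -0.60, -0.06 and -0.51 in PT and 0.39, 0.69 and 0.50 in PT + HS. They were chosen for likeness to Cebpa on the same arrays, so that sharing its pattern follows from the choice. Between members themselves the closest pair was Csf2ra and Cebpd at 0.288. All of these distances share the same 9 arrays and describe them.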

How the data were processed

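RNA of whole blood from 9 mice, 3 per group, was hybridised by the authors to 1 array each. Groups were taken from the sample labels. The deposited values are log2 expression values made by the authors by robust multiarray average, which corrects background and normalizes quantiles between arrays. The array type in the study's methods differs from that of the deposited probe sets. Depth has no meaning for arrays, and the number of arrays limits the precision.

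Of 45101 probe sets, those with exactly 1 symbol (34958) were kept, and each of 18194 genes was read from its probe set with the highest mean. R 4.3.3 and limma 3.58.1 fitted a mean per group to all 9 arrays, with two-sided moderated tests and Benjamini-Hochberg adjustment per comparison over all genes, and the fit was tested on simulated data. No filter on low values was applied to the main tests. The search for genes most like a member was limited to genes with a mean above the median of all gene means. All members are named, as are up to 4 genes per list with the smallest p in PT + HS against Ctrl and the 3 genes most like each variable member. The members and lists were chosen with earlier results of these data known. Promoters came from RefSeq, GRCm38.p6, by gene symbol. Alternatives were the methods' t-test, fits to the groups of a comparison alone, a variance trend, array weights, equal medians, repeated quantile normalization, a filter on low genes, other probe sets, other thresholds, a replicate block and leaving out each array.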

Additional observations from a re-analysis of the deposited data

How the results depend on the processing

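With 3 arrays per group, of which PT replicate 2 stood apart, single arrays set much of the result. In PT against Ctrl, the number of the 9 genes called was 1 with all arrays, 2 with a variance trend, 7 with array weights (which gave PT replicate 1 86.9% of the weight of its group), 3 with repeated quantile normalization, 2 with the second probe sets and 3 with a replicate block. Leaving out each array gave 1 to 5. In PT + HS against Ctrl the count was 7, with 4 at a 2-fold threshold, 5 by the methods' t-test (without Csf2rb2, Cebpa and Spi1 and with Csf2ra) and 8 with the replicate block, where Csf2ra was added. It was 3 to 8 without each array, namely 3 (Csf3r, Csf2rb and Cebpb) without Ctrl replicate 2, PT + HS replicate 1 or PT + HS replicate 3, 4 without Ctrl replicate 3 and 5 without Ctrl replicate 1. In PT + HS against PT it was 1, that of Cebpa, in every setting with all arrays, the replicate block included, and 1 to 4 without each array. Same-numbered arrays had deviations correlated at -0.115 to 0.478, and 4 of 9 arrays correlated best with their own number. The labels do not say what the replicate numbers stand for, and these values cannot tell whether they pair the animals.

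The sign turned for Csf2ra in PT against Ctrl with the mean of the probe sets (-0.085) and the second probe set (-0.50), and in PT + HS against Ctrl with the second probe set (-0.32). In PT + HS against PT it turned with array weights for Csf2ra (-0.21), Csf2rb (-0.20), Csf2rb2 (-0.17), Cebpb (-0.21), Cebpd (-0.19) and Spi1 (-0.085), and with the second probe set for Cebpd (-0.15). Leaving out each array gave -0.035 to 0.63 for Csf2ra and -0.027 to 0.99 for Cebpd, both lowest without PT replicate 2, and -0.051 to 0.71 for Csf2rb2, below 0 without PT replicate 3 or PT + HS replicate 3. The cause was not tested. An adjusted p under 0.05 was reached for Csf2rb, Cebpb and Cebpd in PT against Ctrl with array weights, and in PT + HS against Ctrl for Csf2rb (the 2 groups alone, array weights, or without PT replicate 2) and Cebpb (the 2 groups alone). Over all genes the number called also moved. In PT against Ctrl it was 668, with 293 by the methods' t-test, 1666 with array weights, 1117 without PT replicate 2 and 1493 without PT replicate 3. In PT + HS against Ctrl it was 596, with 898 in the 2 groups alone. In PT + HS against PT it was 204, with 76 by the methods' t-test, 103 with the mean of the probe sets, 877 with array weights, 506, 855 and 623 without PT replicates 1, 2 and 3, and 335 without PT + HS replicate 2.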
